A study of Mus musculus with 6 samples.

Results

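Claudins are the membrane proteins that seal the tight junction between epithelial cells and set which ions pass between them. The 10 claudin genes described here are *Cldn1*, *Cldn2*, *Cldn3*, *Cldn4*, *Cldn6*, *Cldn7*, *Cldn8*, *Cldn10*, *Cldn16* and *Cldn19*, each of which is known from the kidney or from epithelial development. They were taken by symbol from the 55367 gene symbols listed for each library, and all 10 were found. All 10 were among the 14862 genes that passed a filter on low values (2 or more libraries with FPKM of 1 or higher), and each stood above that level in all 6 libraries. FPKM corrects a gene's fragment number for exon length and for library size, so levels of different genes can be set side by side.

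RNA-seq covered DBA+ kidney cells of WT mice, of Pkd1-/- mice (ADPKD) and of Pkd1-/- mice treated with MMPP (ADPKD+MMPP), with 2 libraries in each group, all from Day115. The lectin DBA attaches to collecting duct epithelium, and the cells were drawn with it from digested kidneys. MMPP is a melanin-like nanoparticle that was given intravenously, while the WT and ADPKD mice of these libraries received saline. The question put to these libraries was how gene expression in the cells changes with the disease and with the treatment.

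The Pkd1-/- mice were male Pkd1 fl/fl;Cre/Esr1+ animals in which tamoxifen had set off the Cre recombinase. The study's methods name the other genotype Pkd1+/+. The promoter that drives the Cre, whether the WT mice carried the Cre or were given tamoxifen, and the number of animals behind each library are not given in the sources used here. A p-value below therefore measures only the spread between these libraries, which may be technical.

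Along the nephron each segment expresses its own set of claudins. *Cldn2* forms a cation pore in the leaky proximal tubule, *Cldn10* is present there and in the thick ascending limb in different splice forms, and *Cldn16* and *Cldn19* together allow magnesium and calcium to return between the cells of the thick ascending limb. *Cldn3*, *Cldn4*, *Cldn7* and *Cldn8* are claudins of the tight distal nephron and collecting duct, where *Cldn4* and *Cldn8* act together in the passage of chloride. *Cldn1* is a barrier claudin that in the kidney is known from the parietal cells of Bowman's capsule, and *Cldn6* is a claudin of embryonic epithelia.

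The 10 genes share a signature in the first extracellular loop, glycine, leucine and tryptophan followed by a pair of cysteines, which marks a protein as a claudin. The coding stretch around it is shown for 9 of them to let the family be recognised in sequence and to show how close its members are. The stretches were read from GENCODE vM21 transcripts (GRCm38) with 8 codons on either side of the signature. They run 5′ to 3′, and capitals mark the codons of the 3 residues and of both cysteines. All lie in annotated coding exons, and that of *Cldn16* crosses from exon 1 to exon 2.
Cldn4 (chr5:134946530-134946625, minus strand, exon 1): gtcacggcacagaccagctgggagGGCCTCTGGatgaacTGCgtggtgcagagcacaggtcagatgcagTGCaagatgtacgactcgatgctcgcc
Cldn3 (chr5:134986562-134986657, plus strand, exon 1): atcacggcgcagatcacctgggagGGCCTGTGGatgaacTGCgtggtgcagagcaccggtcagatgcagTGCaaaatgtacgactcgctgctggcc
Cldn7 (chr11:69966047-69966142, plus strand, exon 1): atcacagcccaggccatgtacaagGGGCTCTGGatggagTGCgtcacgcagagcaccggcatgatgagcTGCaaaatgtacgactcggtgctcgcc
Cldn8 (chr16:88562820-88562915, minus strand, exon 1): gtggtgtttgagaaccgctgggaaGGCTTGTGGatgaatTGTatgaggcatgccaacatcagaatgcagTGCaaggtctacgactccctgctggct
Cldn1 (chr16:26371411-26371506, minus strand, exon 1): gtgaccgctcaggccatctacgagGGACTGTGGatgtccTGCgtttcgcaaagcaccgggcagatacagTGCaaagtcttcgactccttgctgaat
Cldn6 (chr17:23681184-23681279, plus strand, exon 3): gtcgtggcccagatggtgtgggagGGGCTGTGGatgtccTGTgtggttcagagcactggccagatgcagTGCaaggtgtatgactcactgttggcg
Cldn2 (chrX:139808828-139808923, plus strand, exon 2): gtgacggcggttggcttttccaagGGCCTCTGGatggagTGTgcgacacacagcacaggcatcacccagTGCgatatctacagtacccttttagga
Cldn10 (chr14:118788268-118788363, plus strand, exon 1): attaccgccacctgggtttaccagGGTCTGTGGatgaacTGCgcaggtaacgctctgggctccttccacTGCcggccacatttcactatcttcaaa
Cldn16 (from chr16:26463594 to chr16:26474282, plus strand, exons 1 and 2): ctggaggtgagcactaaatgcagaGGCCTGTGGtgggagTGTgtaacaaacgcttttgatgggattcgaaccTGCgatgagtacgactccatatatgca

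*Cldn3* and *Cldn4* were identical at 87 of 96 bases (90.6%) of this stretch, the closest pair among the stretches of that length. *Cldn8* and *Cldn10* were identical at 34 of 96 bases (35.4%), the least alike pair. That of *Cldn16* is 99 bases long because its signature holds 17 codons rather than 16. No stretch of 50 bases was shared between a listed claudin and any other claudin gene in 320 gene pairs. Other genes and pseudogenes were not compared. *Cldn3* and *Cldn4* also lie 39.3 kb apart on chromosome 5 in opposite directions, and *Cldn1* and *Cldn16* 91.3 kb apart on chromosome 16, with no annotated protein-coding gene between either pair. The exons of *Cldn3* overlap those of Wbscr25 on the opposite strand by 40 of 1259 bases, and those of *Cldn19* overlap Gm12927 by 90 of 4263 bases. Whether the counting used strand is not given, so reads from those bases cannot be told apart.

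Several facts of the libraries bear on every value below. Multiplied by exon length, low FPKM values fell on steps of single reads when the most frequent step was taken as a read pair. The depth on this scale was 30.6 to 33.1 M reads for WT and ADPKD but only 11.8 and 10.9 M reads for ADPKD+MMPP. Odd numbers of reads made up 35.4% to 37.3% of low values for WT and ADPKD but only 8.10% and 7.70% for ADPKD+MMPP. *Pkd1*, the deleted gene, had 17.7 and 17.2 FPKM in WT, 7.64 and 8.91 in ADPKD, and 4.34 and 3.99 in ADPKD+MMPP. *Esr1*, part of which is fused to the Cre, had 0.242 and 0.161 FPKM in WT, 30.6 and 30.3 in ADPKD, and 0.471 and 0.510 in ADPKD+MMPP, so the libraries labelled ADPKD+MMPP stood near WT rather than near ADPKD for this gene although both groups are labelled Pkd1-/-.

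The change in FPKM between ADPKD+MMPP and ADPKD followed the structure of the gene. Protein-coding genes were sorted by how much of their exon sequence belongs to a single annotated transcript. The median log2 fold change ran from -1.70 in the 619 genes with a share of up to 9.01% to 1.09 in the 1857 genes with a share of at least 88.6%. In ADPKD against WT the medians of the same bins lay between -0.03 and 0.07. The libraries with this feature belong to the treated condition alone, so the treatment and the way the values were made cannot be told apart. Each claudin's change after MMPP is therefore given beside the median of the genes of like structure.

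*Cldn4* was by far the most abundant of the family. It held rank 27 and 14 of all genes by FPKM in the WT libraries and rank 3 in each of the other 4 libraries, above such collecting duct genes as *Aqp2* in the ADPKD and ADPKD+MMPP libraries. *Cldn6* was the lowest of the 10 in all 6 libraries. Between them the order changed. In both WT libraries *Cldn7*, *Cldn3* and *Cldn8* followed *Cldn4*, with *Cldn3* and *Cldn8* at nearly the same level (32.6 ± 1.17 and 32.3 ± 0.730 FPKM, SD, n = 2), less apart than their spread. In ADPKD *Cldn3* stood second and *Cldn2* and *Cldn1* had moved above *Cldn8*. In ADPKD+MMPP *Cldn8* and *Cldn2* shared the third place, at 149 ± 5.76 and 150 ± 2.35 FPKM (SD, n = 2), again less apart than their spread.

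**Figure D1:**
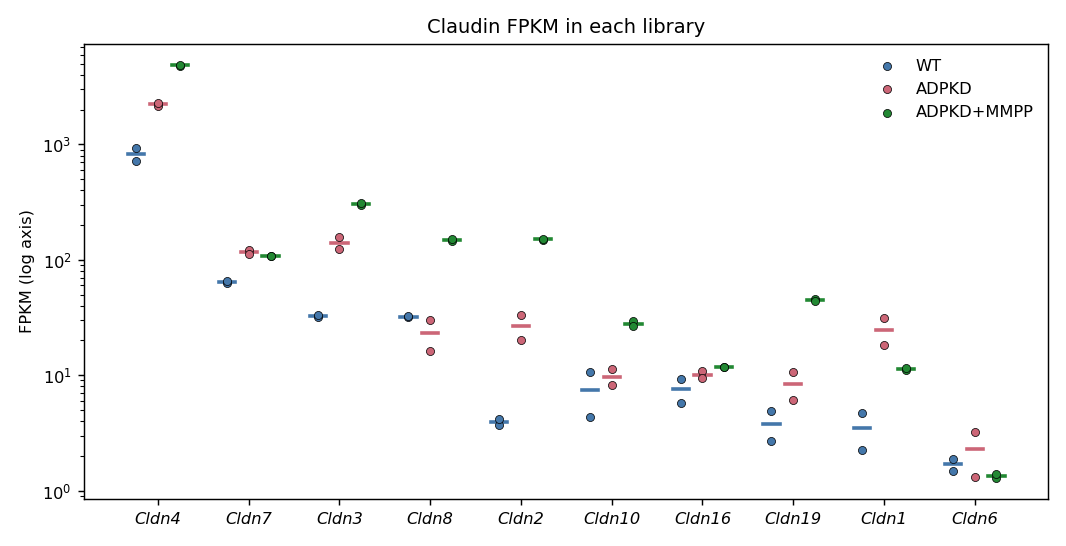
FPKM of the 10 claudins in each library on a log axis, grouped by known segment. Points are libraries and bars are means of the 2 libraries of a group. *Cldn4* lies between 717 and 4914 FPKM and *Cldn6* between 1.28 and 3.25.

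Summed over all claudin genes, FPKM stood at 1002 and 1218 in WT, 2602 and 2711 in ADPKD, and 5674 and 5831 in ADPKD+MMPP. The groups did not overlap, and *Cldn4* made up most of the sum in every library. Its share of the sum was 71.5% and 76.5% in WT, 82.7% and 84.8% in ADPKD, and 84.2% and 84.3% in ADPKD+MMPP. *Cldn7* held 6.32% and 5.41% in WT, 4.67% and 4.17% in ADPKD, and 1.90% and 1.85% in ADPKD+MMPP. *Cldn3* held 3.17% and 2.75%, then 4.73% and 5.76%, then 5.28% and 5.38%. *Cldn2*, the pore of the proximal tubule, went from 0.373% and 0.341% in WT to 1.28% and 0.745% in ADPKD and 2.62% and 2.60% in ADPKD+MMPP. *Cldn5*, which is not among the 10 and is the claudin of endothelial cells, held 9.56% and 7.88% in WT and between 1.41% and 2.0% in the other libraries. In ADPKD+MMPP its own level was 85.7 and 83.0 FPKM beside 95.8 and 96 in WT, so that its lower share there came with the larger sum. From ADPKD to ADPKD+MMPP, genes of like structure showed a median log2 fold change of 1.09 for *Cldn4* and *Cldn3*. That median was 0.97 for *Cldn2* and -0.47 for *Cldn7*. The sums and shares in ADPKD+MMPP were not adjusted for these differences.

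**Figure D2:**
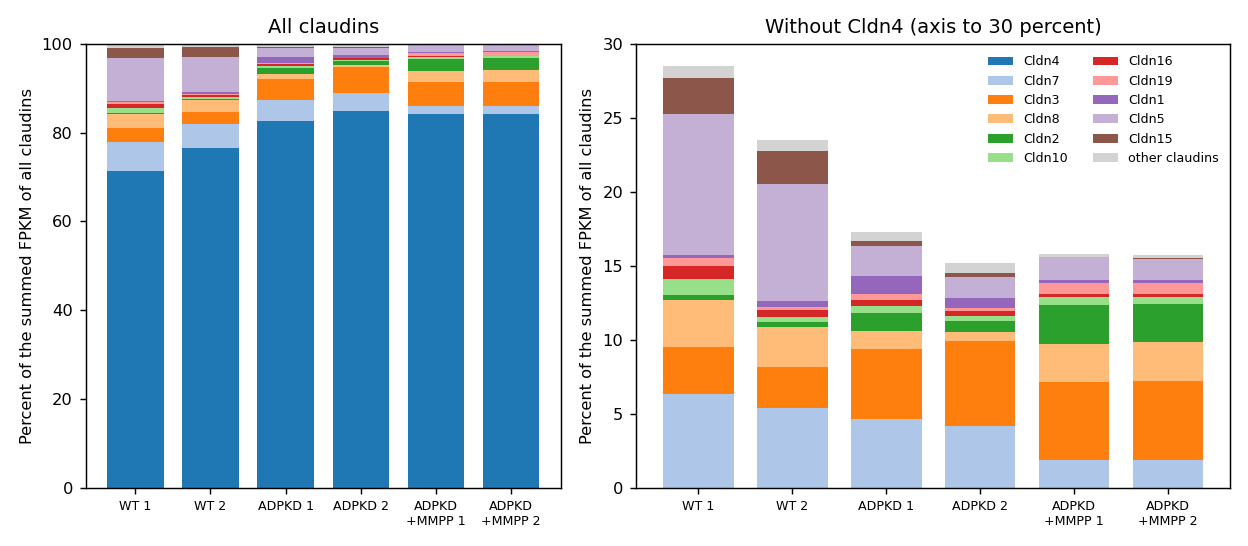
Percent of the summed FPKM of all claudin genes that each claudin holds in each library, with *Cldn4* included on the left (axis to 100 percent) and left out on the right (axis to 30 percent, same denominator). *Cldn4* takes 71.5% to 84.8%, and the *Cldn5* and *Cldn15* blocks of the WT libraries shrink in the others. Shares are not adjusted for gene structure.

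ADPKD against WT asks how the disease model differs from normal cells. In ADPKD, 6 of the 10 claudins rose, none fell and 4 were not called. The call, taken from the study's thresholds, asks for 1.5-fold or more and an unadjusted limma P under 0.05. Over all tested genes 14.2% were called higher while 12.5% were called lower. *Cldn1*, *Cldn2*, *Cldn3*, *Cldn4*, *Cldn7* and *Cldn19* rose, by 1.82 to 7.15 times in mean FPKM. *Cldn6*, *Cldn8*, *Cldn10* and *Cldn16* were not called. The 10 had a median log2 fold change of 0.91, beside 0.03 over all tested genes. With a fit on these 4 libraries alone 6 rose again, and without ADPKD replicate 2, in which markers of several tubule segments were low, 7 did. It was 8 without WT replicate 1, 5 without WT replicate 2, 5 without ADPKD replicate 1, 5 by adjusted p and 4 at 2-fold. A fit that leaves out a library takes its spread from the 2 complete groups, and the lone library left is assumed to vary like them.

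Markers of other cells moved in the same comparison, in which 14.2% of all tested genes were called higher and 12.5% lower. Of the 10 macrophage and leukocyte markers 9 were tested, with 8 called higher and 1 lower in ADPKD, and their summed FPKM was 242 and 184 in WT, 1167 and 817 in ADPKD, and 1350 and 1390 in ADPKD+MMPP. Of the 6 fibroblast markers 5 were called higher and 1 lower, with sums of 99.3 and 78.5, 148 and 163, and 162 and 170.0. *Col1a1*, *Col3a1*, *Postn* and *Ptprc* among them were under 1 FPKM in both WT libraries and passed the filter only through other groups. The part of these cells in the claudin values was not tested, and in bulk RNA fewer cells of a type and less RNA per cell cannot be told apart.

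ADPKD+MMPP against ADPKD asks what the treatment changed. Here 6 of the 10 claudins were called higher, 1 lower and 3 were not called, while 27.9% of all tested genes were called higher and 43.0% lower. *Cldn2*, *Cldn3*, *Cldn4*, *Cldn8*, *Cldn10* and *Cldn19* were the higher ones and *Cldn1* the lower one. The 10 had a median of 1.13 on the log2 scale, beside -0.36 over all tested genes. After centring, that is, subtracting from every gene the median of its structure bin in that library, 6 were called higher and none lower, but *Cldn3* and *Cldn4* lost the call and *Cldn6* and *Cldn16* gained it.

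Against WT, 9 of the 10 claudins were called higher in ADPKD+MMPP and none lower, with *Cldn6* the exception, while 30.1% of all tested genes were called higher and 43.8% lower. The median of the 10 was 2.02 on that scale, beside -0.36 over all tested genes. The 3 comparisons share libraries, so their values are given side by side and not as separate support.

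**Figure D3:**
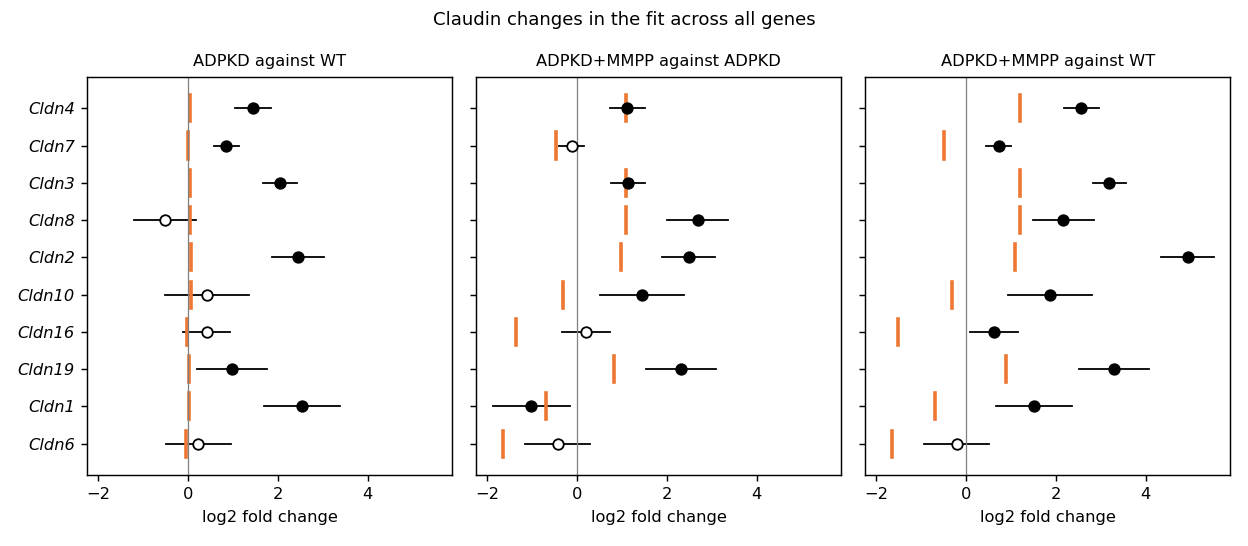
Log2 fold change of each claudin (point) with its 95% interval (line) in the 3 comparisons, from limma on log2(FPKM + 1). Filled points were called, and the orange bar is the median of the genes of like structure, which lies near 0 in ADPKD against WT and between -1.65 and 1.2 in the comparisons with ADPKD+MMPP.

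Of the collecting duct claudins, *Cldn4* (chr5:134945119-134946934) had 717 and 932 FPKM in WT, 2152 and 2299 in ADPKD, and 4778 and 4914 in ADPKD+MMPP. The 3 groups were fully apart, with WT lowest and ADPKD+MMPP highest. In ADPKD it was 2.70 times WT (log2 fold change 1.44, SE 0.16, adjusted p = 0.00438, limma with Benjamini-Hochberg adjustment). The step to ADPKD+MMPP was of 1.12 (SE 0.16, limma adjusted p = 0.00120), beside a median of 1.09 for genes of like structure. *Cldn4* has 1 annotated transcript, and after centring within such genes its change was 0.02 and not called.

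*Cldn3* (chr5:134986214-134987472), the neighbour and closest relative of *Cldn4* here, had 31.8 and 33.5 FPKM in WT, 123 and 156 in ADPKD, and 299 and 314 in ADPKD+MMPP. It too rose in ADPKD with no overlap, 4.28 times in mean FPKM (log2 fold change 2.06, SE 0.15, limma adjusted p = 0.00271). Its change after MMPP was 1.14 (SE 0.15, limma adjusted p = 0.000926), against 1.09 for genes of like structure, and 0.03 with centring, not called. Over WT the difference in ADPKD+MMPP was 3.19, of which genes of like structure showed 1.2. The ratio of *Cldn4* to *Cldn3* within a library was 22.5 and 27.8 in WT, 17.5 and 14.7 in ADPKD, and 16.0 and 15.7 in ADPKD+MMPP, so *Cldn3* gained on *Cldn4* between WT and ADPKD and both moved alike after that.

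*Cldn7* (chr11:69964779-69967885), a claudin found along the basolateral side of distal tubule cells as well as in junctions, had 63.3 and 65.9 FPKM in WT, 122 and 113 in ADPKD, and 108 and 108 in ADPKD+MMPP. WT was lower than both other groups, and the ADPKD+MMPP libraries lay just under the ADPKD ones. It rose 1.82 times in ADPKD (log2 fold change 0.85, SE 0.11, limma adjusted p = 0.00641). Between ADPKD+MMPP and ADPKD the difference was -0.12 (95% interval -0.40 to 0.16) and was not called, with -0.47 for genes of like structure, and its sign turned with the scaling, to 0.10 with median-ratio scaling and 0.53 with centring. The 5 annotated transcripts of *Cldn7* leave 51.7% of its exon bases in exactly 1 of them.

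*Cldn8* (chr16:88560828-88563183), through which the collecting duct reabsorbs chloride with *Cldn4*, had 31.8 and 32.8 FPKM in WT, 30.2 and 16.3 in ADPKD, and 145 and 153 in ADPKD+MMPP. ADPKD replicate 1 lay near WT and replicate 2 well under it, while both ADPKD+MMPP libraries were far above all others. The difference between ADPKD and WT was -0.52 (95% interval -1.2 to 0.17, limma adjusted p = 0.218), short of a call. Leaving out ADPKD replicate 1, with 1 ADPKD library left, gave -0.94 and a lower call, and centring gave -0.66 and a lower call. After MMPP *Cldn8* was higher by 2.69 (SE 0.28, limma adjusted p = 0.000340), where genes of like structure showed 1.09. Its mean FPKM was 6.39 times that of ADPKD.

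The ratio of *Cldn4* to *Cldn8* in the same library was 22.6 and 28.4 in WT, 71.2 and 141 in ADPKD, and 33.0 and 32.2 in ADPKD+MMPP. Both genes have 1 annotated transcript, so they fall in the same bin of gene structure. Both ADPKD libraries stood above all others, and the ADPKD+MMPP libraries lay a little above WT. The ratio of *Cldn3* to *Cldn8* was also highest in ADPKD, at 4.07 and 9.57. It was 1.0 in both WT libraries and 2.07 and 2.05 in ADPKD+MMPP, which here stood clearly above WT. These gene pairs were chosen with the values known, so the ratios are a description.

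*Cldn1* (chr16:26356642-26371841) had 2.26 and 4.67 FPKM in WT, 31.3 and 18.2 in ADPKD, and 11.1 and 11.5 in ADPKD+MMPP. ADPKD was highest with no overlap, and ADPKD+MMPP lay between the others. It rose 7.15 times in mean FPKM in ADPKD (log2 fold change 2.54, SE 0.34, limma adjusted p = 0.00669). In ADPKD+MMPP it was lower than in ADPKD, with a log2 fold change of -1.02 (SE 0.34, limma adjusted p = 0.0360), where genes of like structure showed -0.70. That call was lost without ADPKD replicate 1 (-0.64), without ADPKD+MMPP replicate 1 (-0.99) and without ADPKD+MMPP replicate 2 (-1.05), and the change was -0.13 with centring. It was still above WT by 1.52 in ADPKD+MMPP (limma adjusted p = 0.00779). A list of 5 podocyte genes moved the other way from *Cldn1* in ADPKD, with 5 of 5 called lower beside 12.5% of all tested genes. Their summed FPKM was 900 and 1231 in WT against 205 and 90.8 in ADPKD.

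*Cldn6* (chr17:23679249-23682446) was near the filter, with 1.48 and 1.90 FPKM in WT, 3.25 and 1.30 in ADPKD, and 1.28 and 1.38 in ADPKD+MMPP. The ADPKD libraries stood on either side of WT. It was not called in any comparison, at 0.22 (95% interval -0.50 to 0.95) in ADPKD against WT. After MMPP the difference was -0.42 (95% interval -1.15 to 0.30), where genes of like structure showed -1.64, and it was 1.52 and called higher with centring. About 26 reads stood behind each ADPKD+MMPP value. Without ADPKD replicate 2, which leaves 1 ADPKD library, it was called higher in ADPKD (0.66) and lower after MMPP (-0.87).

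In the proximal tubule set, *Cldn2* (chrX:139800828-139811386) had 3.74 and 4.16 FPKM in WT, 33.4 and 20.2 in ADPKD, and 148 and 152 in ADPKD+MMPP. It rose at each step with no overlap. In ADPKD it was 6.78 times WT (log2 fold change 2.45, SE 0.24, limma adjusted p = 0.00353). The change after MMPP was 2.49 (SE 0.24, limma adjusted p = 0.000255), where genes of like structure showed 0.97, and with both steps it reached 38.0 times the mean FPKM of WT, the largest difference of the 10 between any groups.

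*Cldn10* (chr14:118787908-118875489) had 10.7 and 4.30 FPKM in WT, 11.2 and 8.19 in ADPKD, and 29.4 and 26.5 in ADPKD+MMPP. WT and ADPKD overlapped, and ADPKD+MMPP was above both. The difference between ADPKD and WT was 0.43 (95% interval -0.51 to 1.37), which was not called, was called without WT replicate 1 (1.0) and turned to -0.14 without WT replicate 2. After MMPP it was higher by 1.45 (SE 0.38, limma adjusted p = 0.0145), where genes of like structure showed -0.30. That call was lost without ADPKD replicate 2 (1.24) and without ADPKD+MMPP replicate 1 (1.37). The gene has 3 annotated transcripts and 2 start sites, and FPKM per gene does not separate its proximal tubule form from its thick limb form.

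After MMPP most listed markers of the proximal tubule were called higher, as were these 2 claudins. In ADPKD against WT the markers were divided, with *Cldn2* called higher and *Cldn10* not called. Of the 14 listed, 6 were called higher and 1 lower in ADPKD against WT, 10 higher and 1 lower after MMPP, and 11 higher and 1 lower in ADPKD+MMPP against WT. The shares called higher and lower over all tested genes were 14.2% and 12.5%, 27.9% and 43.0%, and 30.1% and 43.8% in turn. The summed FPKM of the 14 markers was 816 and 609 in WT, 2091 and 1491 in ADPKD, and 23910 and 22740 in ADPKD+MMPP, although the cells were drawn with a lectin for the collecting duct. *Gpx3* and *Kap*, which changed by 2.73 and 6.10 after MMPP beside -0.10 and -1.06 for genes of like structure, carried most of that sum. Without *Gpx3* it was 438 and 213 in WT, 817 and 190.4 in ADPKD, and 15130 and 14420 in ADPKD+MMPP, so that WT and ADPKD overlapped while ADPKD+MMPP stayed above both. *Lrp2*, the endocytic receptor megalin, had 1.88 and 2.21 FPKM in WT, 9.80 and 4.86 in ADPKD, and 68.7 and 68.7 in ADPKD+MMPP. Its change after MMPP was 3.13, where genes of like structure showed 0.52. The ratio of *Cldn2* to *Lrp2* in a library was 1.99 and 1.88 in WT, 3.40 and 4.16 in ADPKD, and 2.16 and 2.21 in ADPKD+MMPP, closer to even over the groups than either gene. *Slc34a1*, the phosphate transporter of the brush border, did not follow, at 67.5 and 22.9, 44.9 and 4.44, and 57.2 and 57.8 FPKM. Its change after MMPP was 1.89 and not called, beside -1.01 for genes of like structure. *Hnf4a*, a transcription factor of proximal tubule cells, was listed at 0 in ADPKD+MMPP replicate 2 and had 0.0351 FPKM in replicate 1. It changed by -2.84 after MMPP, where genes of like structure showed -1.64. How far the markers account for the claudins was not tested.

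Of the thick ascending limb claudins, *Cldn16* (chr16:26463135-26482765) had 9.26 and 5.78 FPKM in WT, 10.8 and 9.41 in ADPKD, and 11.7 and 11.9 in ADPKD+MMPP. The groups stood close, each just above the one before. Against WT the difference in ADPKD was 0.41 (95% interval -0.12 to 0.94) and was not called, though without WT replicate 1 it was (0.71). After MMPP it was 0.20 (95% interval -0.33 to 0.74), not called, where genes of like structure showed -1.35; it was -0.08 with scaling to a common sum and 1.98 and called with centring. In ADPKD+MMPP against WT it was called higher at 0.62 (limma adjusted p = 0.0388), and that call was lost without WT replicate 2 (0.32) and without either ADPKD+MMPP replicate (0.63 and 0.61).

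*Cldn19* (chr4:119255414-119262438), the partner of *Cldn16* in the same junctions, had 4.85 and 2.69 FPKM in WT, 10.8 and 6.06 in ADPKD, and 45.3 and 43.7 in ADPKD+MMPP. The groups did not overlap, and the step to ADPKD+MMPP was the large one. In ADPKD it was called higher at 0.97 (SE 0.31, limma adjusted p = 0.0718), a call that the adjusted p does not carry and that was lost without WT replicate 2 (0.64) and without ADPKD replicate 1 (0.60). After MMPP it was higher by 2.32 (SE 0.31, limma adjusted p = 0.00100), where genes of like structure showed 0.82. The ratio of *Cldn19* to *Cldn16* was 0.524 and 0.465 in WT, 0.993 and 0.644 in ADPKD, and 3.87 and 3.68 in ADPKD+MMPP. The pair differ in structure, with 80.6% and 19.0% of exon bases in exactly 1 transcript.

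Of the 6 other genes listed for the thick ascending limb, none was called higher and 2 lower in ADPKD, beside 14.2% and 12.5% of all tested genes. Those shares were 27.9% and 43.0% after MMPP. After MMPP *Ptger3* was called higher (1.31, beside 0.17 for genes of like structure), and *Umod* (-1.77) and *Casr* (-1.20) lower, both beside -1.70. *Slc12a1* (-0.45), *Kcnj1* (-0.01) and *Egf* (2.06) were not called, beside -1.35, -1.64 and -0.10. Their summed FPKM was 1404 and 515 in WT, 605 and 183 in ADPKD, and 146 and 145 in ADPKD+MMPP. *Slc12a1*, the cotransporter that drives salt uptake in this segment, had 170 and 81.0 FPKM in WT, 54.9 and 19.3 in ADPKD, and 24.8 and 22.6 in ADPKD+MMPP. The ratio of *Cldn16* to *Slc12a1* thus went from 0.0544 and 0.0714 in WT to 0.197 and 0.488 in ADPKD and 0.473 and 0.526 in ADPKD+MMPP, with WT below the rest.

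For the collecting duct, 9 of the 10 markers of principal cells were tested, with 1 called higher and 1 lower in ADPKD, and 5 higher and 2 lower after MMPP. The shares over all tested genes were 14.2% and 12.5% in ADPKD, and 27.9% and 43.0% after MMPP. The 5 higher ones lay in bins of gene structure with medians of 0.82 to 1.09, and of the lower ones *Scnn1b* (-1.76) lay in a bin at -1.70 and *Aqp4* (-1.99) in one at 0.52. Their summed FPKM was 2119 and 2822 in WT, 2513 and 958 in ADPKD, and 5460 and 5480 in ADPKD+MMPP. *Aqp2*, the vasopressin-regulated water channel, had 1267 and 1776 FPKM in WT, 1392 and 677 in ADPKD, and 3555 and 3499 in ADPKD+MMPP, while *Avpr2*, its receptor, stood at 0.0587 FPKM or less in all 6 libraries. The lectin-drawn cells thus carried principal cell RNA in every group, beside that of other segments. The ratio of *Cldn4* to *Aqp2* was 0.565 and 0.524 in WT, 1.55 and 3.40 in ADPKD, and 1.34 and 1.40 in ADPKD+MMPP, while that of *Cldn8* to *Aqp2* was 0.0251 and 0.0185, 0.0217 and 0.0241, and 0.0407 and 0.0437. *Cldn8* and *Aqp2* kept about the same ratio in WT and ADPKD, and *Cldn4* did not.

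The 8 markers of intercalated cells, the acid-base cells of the collecting duct, were all called lower in ADPKD, beside 12.5% of all tested genes. After MMPP 7 were called higher, in bins with medians of -0.30 to 1.09, beside 27.9% of all tested genes. Summed FPKM was 336 and 349 in WT, 92.1 and 36.7 in ADPKD, and 263 and 270 in ADPKD+MMPP. *Cldn8* also had its lowest value in ADPKD replicate 2. The part of these markers in its values was not tested.

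**Figure D4:**
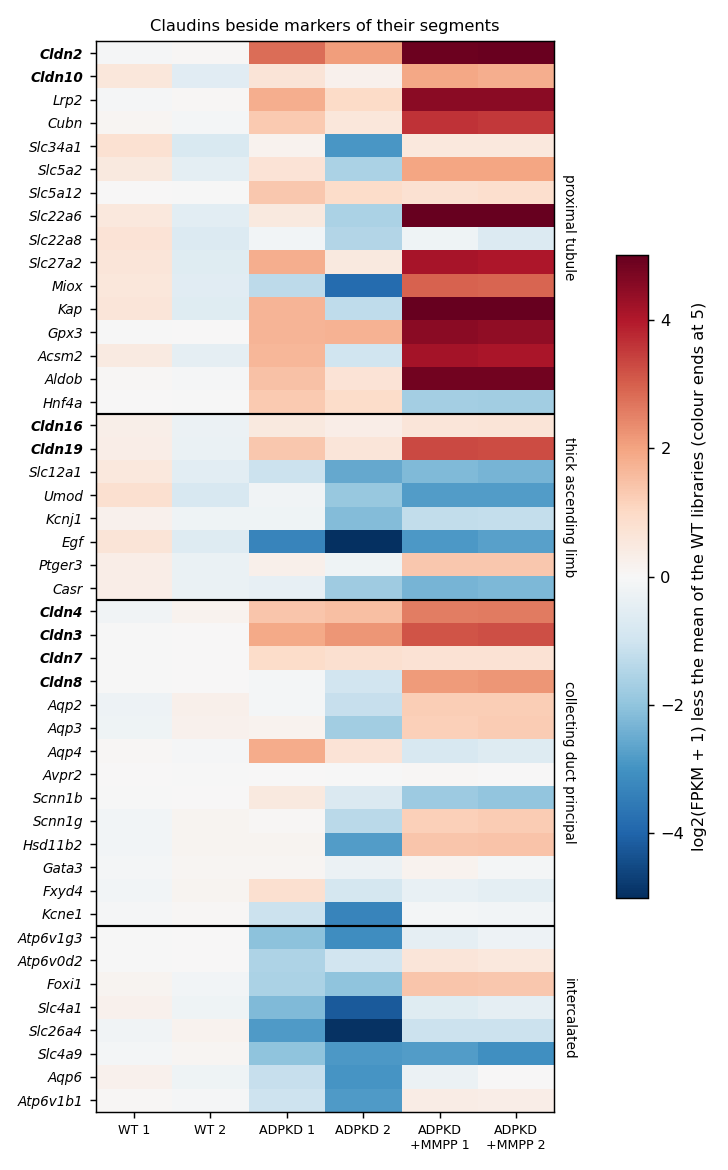
Log2(FPKM + 1) of 8 claudins (bold) and of the markers of their segments in each library, less the mean of the WT libraries. Red is above and blue below WT, and colours end at 5. *Cldn2* and most proximal tubule markers are red in ADPKD+MMPP, *Cldn19* is red there while most thick limb markers are blue, and the intercalated markers are blue in ADPKD.

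**Figure D5:**
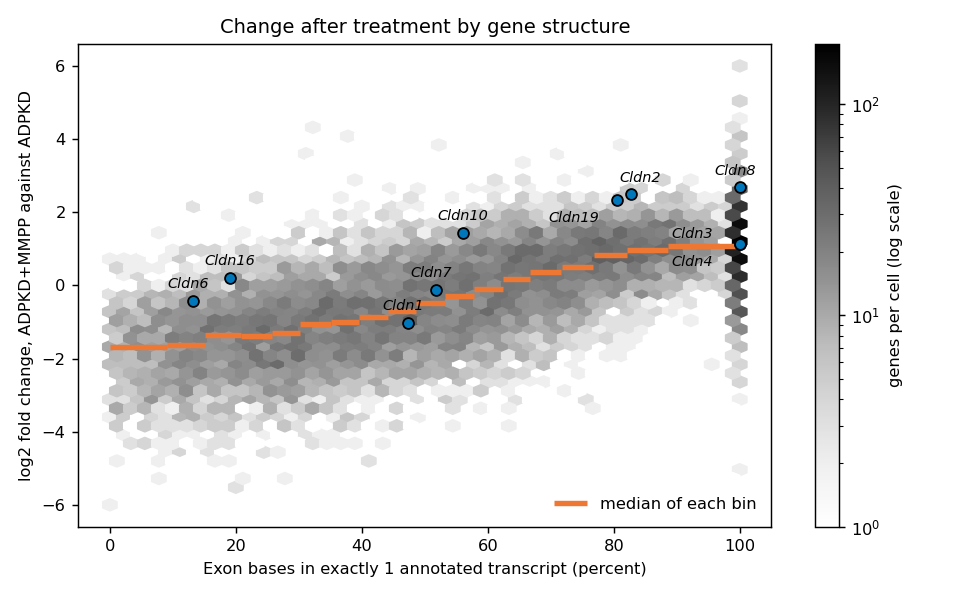
Log2 fold change between ADPKD+MMPP and ADPKD against the percent of exon bases found in a single annotated transcript, for protein-coding genes (grey, darker for more genes), with the median of each bin (orange) and the claudins (blue). Values past 6 in either direction are drawn at 6. *Cldn3* and *Cldn4* lie on the median, *Cldn1* below it, and the other 7 above it.

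Measured against genes of like structure, the claudins fell into a different order after MMPP. *Cldn10* stood 1.75 above the median of its bin on the log2 scale, *Cldn8* 1.6, *Cldn16* 1.56, *Cldn2* 1.52 and *Cldn19* 1.5. *Cldn6* stood 1.22 above and *Cldn7* 0.35 above. *Cldn3* and *Cldn4* were 0.05 and 0.03 above, and *Cldn1* was at -0.32. The plot by gene structure shows these distances from the run of bin medians.

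Beyond the 10, 23 further claudin symbols were listed, of which 5 passed the filter. *Cldn5*, known from endothelial cells, had 95.8 and 96 FPKM in WT, 52.0 and 38.2 in ADPKD, and 85.7 and 83.0 in ADPKD+MMPP, and was called lower in ADPKD (-1.09, SE 0.17) and higher after MMPP (0.90, SE 0.17; 1.09 for genes of like structure). *Cldn15*, a cation pore best known from the gut, had 24.3 and 27.4, 9.20 and 7.59, and 1.04 and 1.38 FPKM and was called lower at both steps, by -1.52 and -2.09 (-1.64 for genes of like structure after MMPP). *Cldn23* was called higher in ADPKD (2.04, SE 0.34), at 0.496 and 0.909 FPKM in WT and 4.02 and 8.57 in ADPKD. *Cldn9* was called higher in ADPKD (0.93), at about 1 FPKM there. *Cldn9* and *Cldn23* were under 1 FPKM in both WT libraries and passed the filter only through the groups in which they were high, so their direction was set by the filter. *Cldn12* was called lower after MMPP (-1.83), where genes of like structure showed -1.64. Of the 6 markers of endothelium 5 were called lower in ADPKD, as *Cldn5* was, and *Plvap* was called higher (0.92). Over all tested genes 12.5% were called lower and 14.2% higher there. The summed FPKM of the 6 was 933 and 775 in WT against 515 and 514 in ADPKD. After MMPP none of them was called higher and 2 lower, beside 27.9% and 43.0% of all tested genes.

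The scaffold and membrane partners of claudins in the junction did not share one direction. Of 38 tested, 13 were called higher and 8 lower in ADPKD, 9 higher and 23 lower after MMPP, and 8 higher and 26 lower in ADPKD+MMPP against WT. Over all tested genes the shares called higher and lower were 14.2% and 12.5%, 27.9% and 43.0%, and 30.1% and 43.8%. *Ocln* (occludin) and *Cgn* (cingulin, a plaque protein) rose most in ADPKD, from 10.7 and 11.7 to 32.2 and 28.5 FPKM and from 8.03 and 7.96 to 28.4 and 25.3 FPKM, which is a log2 fold change of 1.36 (SE 0.13) and 1.63 (SE 0.12). *Epcam*, which binds *Cldn7* and keeps it from degradation, followed at 1.13 (SE 0.19), from 110 and 111 to 249 and 239 FPKM. *Tjp3* (0.77) rose as well, while *Tjp1*, the scaffold ZO-1, fell (-0.85, SE 0.14), from 57.9 and 69.8 to 35.3 and 34.6 FPKM. *Magi2* (-1.92), *Ildr2* (-1.65) and *Jam3* (-1.57) fell most.

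After MMPP the partners called higher had 64.1% to 100% of their exon bases in exactly 1 transcript and those called lower 2.26% to 61.1%, so the calls ran along gene structure. *Epcam* was lowest of all, at 1.39 and 0.668 FPKM in ADPKD+MMPP (-6.94, SE 0.19), where genes of like structure showed -1.70. *Amotl2* (-4.64) and *Cgnl1* (-4.59) came next, where genes of like structure showed -1.31 and -1.64. *Cgn* (-4.43), *Ocln* (-2.41), *Tjp3* (-2.36) and *Tjp1* (-1.31) were also called lower, beside -1.70, -1.06, -1.35 and -1.35. *Pard6b* (1.56) and *Marveld3* (1.47) were among the highest, beside 1.09 and 0.97. Over WT, *Marveld3* (2.41) and *Cxadr* (1.96) were among the highest, both beside 1.09 for genes of like structure. *Epcam* (-5.80), *Amotl2* (-5.08) and *Cgnl1* (-4.37) were lowest, beside -1.67, -1.40 and -1.65. *Epcam* has 7.06% of its exon bases in 1 transcript.

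Of 32 genes listed as possible regulators of claudin genes or proteins, 31 were tested. The list also holds the ion channels *Trpm6* and *Trpm7*, whose action on claudins was not examined. Of these, 8 were called higher and 6 lower in ADPKD, 6 higher and 20 lower after MMPP, and 7 higher and 17 lower against WT. The same calls over all tested genes were 14.2% and 12.5%, 27.9% and 43.0%, and 30.1% and 43.8%. In ADPKD *Trpm6*, a magnesium channel (2.0, SE 0.32), *Elf3*, an epithelial transcription factor (1.56, SE 0.18), and *Ovol1* (1.24, SE 0.13) rose most. *Trpm6* was also among 4 listed markers of the distal convoluted tubule, of which it was the 1 called higher in ADPKD and 3 were called lower. *Zeb1*, a repressor of epithelial genes (-1.34, SE 0.18), *Klhl3*, which marks *Cldn8* protein for degradation (-1.24, SE 0.22), and *Sgk1*, an aldosterone-induced kinase (-1.07, SE 0.12), fell most. After MMPP *Vdr*, the vitamin D receptor (2.26), *Tfcp2l1*, a factor of collecting duct cells (2.13), and *Ovol1* (1.32) were highest, with 0.97, 1.09 and 1.09 for genes of like structure. *Sgk1* (-5.03) and *Wnk4* (-3.46) were lowest, beside -1.31 and -1.70. Against WT *Ovol1* (2.56), *Tfcp2l1* (2.25) and *St14* (1.87) were highest, and *Sgk1* (-6.10), *Wnk4* (-3.99) and *Wnk1* (-3.28) lowest.

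The study is concerned with CREB, a transcription factor that binds the cAMP response element (CRE). RefSeq promoter windows (GRCm38.p6, 250 bases before to 50 after a start site) were found for 9 of the 10 genes, 12 windows in all. The full CRE, TGACGTCA on either strand, was in 2 of the 12 windows, those of *Cldn6* and of the second start of *Cldn7*, and in 1.79% of all 32851 windows. The half-site TGACG, which the full CRE contains, was in 3 of the 12 and in 20.8% of all windows, and the grainyhead motif AACCGGTT in none of the 12 and in 0.146% of all. A match is a description and not a site. The 250 bases before the start are shown for the genes with a CRE, in capitals, and for the neighbours *Cldn3* and *Cldn4*, the most abundant pair that moved together, where capitals mark the half-site of *Cldn3* on the opposite strand.
Cldn6 (chr17:23679115-23679364, plus strand): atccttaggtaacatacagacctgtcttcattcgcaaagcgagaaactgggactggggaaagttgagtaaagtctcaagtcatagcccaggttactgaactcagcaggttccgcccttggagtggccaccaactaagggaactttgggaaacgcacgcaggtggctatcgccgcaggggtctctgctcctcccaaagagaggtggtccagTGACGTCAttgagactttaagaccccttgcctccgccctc
Cldn7, second start (chr11:69965171-69965420, plus strand): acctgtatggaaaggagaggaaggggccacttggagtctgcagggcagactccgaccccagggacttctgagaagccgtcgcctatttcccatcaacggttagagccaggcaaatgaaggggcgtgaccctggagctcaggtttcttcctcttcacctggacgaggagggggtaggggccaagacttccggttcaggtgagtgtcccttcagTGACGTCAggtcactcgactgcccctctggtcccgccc
Cldn3 (chr5:134985964-134986213, plus strand): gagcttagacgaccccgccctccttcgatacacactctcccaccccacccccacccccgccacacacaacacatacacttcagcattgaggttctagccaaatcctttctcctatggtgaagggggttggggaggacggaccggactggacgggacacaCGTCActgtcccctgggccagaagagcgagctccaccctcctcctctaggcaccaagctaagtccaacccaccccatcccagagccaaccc
Cldn4 (chr5:134946935-134947184, minus strand): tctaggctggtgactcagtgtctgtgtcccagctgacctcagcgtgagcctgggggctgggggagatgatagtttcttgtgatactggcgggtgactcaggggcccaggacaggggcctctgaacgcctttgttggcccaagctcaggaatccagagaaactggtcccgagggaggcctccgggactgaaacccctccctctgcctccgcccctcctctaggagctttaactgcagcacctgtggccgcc

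The CRE of *Cldn6* began 40 bases and that of *Cldn7* 38 bases before the start site. *Cldn7* was called higher in ADPKD and not called after MMPP, and *Cldn6* was called in neither. Of the others called higher in ADPKD, *Cldn3* had a half-site, and *Cldn1*, *Cldn2*, *Cldn4* and *Cldn19* had no full CRE or half-site in these windows. The study also counts CRE sequences in enhancers, which were not searched here.

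Each claudin's pattern was also compared with all tested genes, by the root mean square difference of log2(FPKM + 1) over the 6 libraries after each gene was set to its own mean. *Cldn4* was nearest to *Cstb* (0.0744), a cathepsin inhibitor, *Dpep1* (0.0875) and *S100a11* (0.0936). *Cldn3* was nearest to *Wfdc2* (0.0835), a secreted protein of distal epithelia, at 137 and 143 FPKM in WT, 507 and 559 in ADPKD, and 1249 and 1242 in ADPKD+MMPP. *Cldn2* was nearest to *Cfi* (0.184) and *Cdh3* (0.235), and *Cldn19* to *Asb9* (0.0939), *Fabp3* (0.152) and *Cubn* (0.188), the last a proximal tubule marker. *Cldn8* was nearest to *Msrb2* (0.0975), *Cldn7* to *Pdk4* (0.0678), *Cldn1* to *Prrg4* (0.232), *Cldn10* to *Cep85* (0.185), *Cldn16* to *Adam19* (0.0603) and *Cldn6* to *Prepl* (0.0883). With 6 libraries in 3 groups many genes share a pattern, so these names are a description.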

How the data were processed

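DBA+ kidney cells of 3 groups with 2 libraries each were sequenced. The authors aligned the reads to GRCm38/mm10 with HISAT2 2.1.0, counted them on genes with featureCounts 1.6.0 and deposited FPKM for each library. How FPKM was made from the counts and the annotation release are not given in the sources used here. No count test was run, since FPKM are not counts. Genes reaching FPKM 1 in 2 or more libraries entered limma 3.58.1 (R 4.3.3) as log2(FPKM + 1), and a single model of all 6 libraries left 3 residual degrees of freedom. Fold changes on this scale understate the change of low genes. Calls needed 1.5-fold or more and an unadjusted P under 0.05, the thresholds of the study, and adjusted p-values are Benjamini-Hochberg over all 14862 tested genes. On data simulated for ADPKD against WT, the fit found 99.5% of 200 genes planted with a log2 change of 2 and called 1.45% of 14662 unchanged genes.

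Of 55367 symbols, 53186 had 1 counterpart in GENCODE vM21. Positions, exon lengths and the percent of exon sequence found in a single transcript (18 bins) come from there. Read numbers are FPKM times exon length in steps of 1 read, with the most frequent step of low values taken as a read pair. On this scale 98.2% to 98.9% of low values were whole within 0.02 reads. Counting error was not modelled per gene. Claudins were described by all values, partner and regulator lists by counts and by the 3 highest and 3 lowest called genes without overlap, with the scaffold genes added. Some genes and a sequence that these rules select are not reported here. The members, lists and thresholds were chosen with earlier results of these data known. Alternatives covered the pseudocount, filter, scaling, trend, groups in the fit, thresholds, a replicate block, centring by gene structure and leaving out each library.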

Additional observations from a re-analysis of the deposited data

How the results depend on the processing

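The values rest on 2 libraries a group, with a lower depth in ADPKD+MMPP. The count of claudins called higher was 4 to 8 for ADPKD over WT, 5 to 6 for ADPKD+MMPP over ADPKD and 7 to 10 for ADPKD+MMPP over WT, across all alternatives. No claudin was called lower in ADPKD against WT except 1 with centring, and 0 to 1 when a library was left out. The 1 claudin called lower in ADPKD+MMPP against ADPKD became 0 with a pseudocount of 0.1, no filter, median-ratio scaling, quantile scaling and centring, and ranged from 0 to 2 with a library left out. Over all genes, a fold change of at least 2 left 1016 called higher and 935 lower in ADPKD against WT, and centring left 3025 called lower in ADPKD+MMPP against ADPKD and 3301 against WT.

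Directions turned for values that were not called. *Cldn6* ranged from -0.22 to 0.66 in ADPKD against WT and from -0.87 to 0.017 in ADPKD+MMPP against ADPKD with a library left out, and *Cldn10* from -0.14 to 1.0 in ADPKD against WT. For the step to ADPKD+MMPP, quantile scaling gave *Cldn6* 0.23, median-ratio scaling gave *Cldn7* 0.10, a common sum gave *Cldn16* -0.078, and centring gave *Cldn6* 1.52 and *Cldn7* 0.53. Against WT, *Cldn6* was 0.42 with quantile scaling and 1.77 with centring. The cause was not tested. *Cldn4* had a change of 0.00 after MMPP with quantile scaling, since it holds the same rank in those 4 libraries. Against WT, *Cldn7* lost its call in ADPKD+MMPP with a common sum (0.34) and quantile scaling (0.36), and *Cldn16* with a common sum (0.26). Quantile scaling moved the median log2 fold change of all genes after MMPP from -0.36 to 0.10 and the share of called genes that were higher from 39.3% to 54.0%, median-ratio scaling to -0.21 and 44.5%, and a common sum to -0.56 and 31.9%.

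Replicate numbers are shared between groups, but same-numbered libraries deviated together with r of 0.13 or less, so they do not pair the samples. With a replicate block 6 claudins were called higher and 0 lower in ADPKD against WT, and 2151 genes were called higher and 1904 lower, beside 2109 and 1861 without it. The block changed no claudin call in the 3 comparisons.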
